A study of Drosophila melanogaster with 4 samples.

Results

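The Wnt pathway was followed through 10 genes of Drosophila melanogaster, taken by symbol from the table of gene counts: the ligand gene wg, the receptor genes fz, fz2 and fz3, the co-receptor gene arr, the relay genes arm and Axn, the transcription factor gene pan, and nkd and Notum, which are induced by the pathway in several fly tissues. All 10 symbols were found among the 17806 named genes, and all 10 passed the filter on low counts and were tested. The samples were adult flies, 200 per sample with 100 males and 100 females, ground to powder and treated with ultraviolet light so that proteins became crosslinked to bound RNA. The 2 PABP IP libraries hold RNA recovered on FLAG beads with the poly(A)-binding protein (PABP), the protein that coats the poly(A) tails of mRNAs, and their labels assign them to intestinal progenitor cells. The 2 input libraries were made from the same kind of extract ahead of the precipitation, and their labels assign them to all cells. Both groups come from whole animals. The labels state neither genotype, age nor the driver of the tagged protein. A mock precipitation and total RNA from isolated progenitors are not analysed here.

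In canonical Wnt signalling a secreted Wnt protein binds a Frizzled receptor together with its co-receptor Arrow. Without ligand, a destruction complex built on the scaffold Axin marks Armadillo, the fly beta-catenin, for degradation. With ligand, Armadillo accumulates and works with Pangolin, the fly TCF, at target genes, among them genes of inhibitors that damp the signal. In the adult fly midgut the pathway is known for its activity near the boundaries between gut regions and for effects on the proliferation of stem cells.

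Total counts were 8987420 and 10761349 in PABP IP 1 and 2 and 2464629 and 3346231 in input 1 and 2. The 10 genes together took 13341, 16985, 2249 and 3102 of them. All 6 progenitor markers checked (esg, Dl, Sox21a, Sox100B, klu and zfh2) were higher in the IP, with a summed level of 8545 to 9280 CPM (read counts scaled to a common TMM library size) against 103 in each input library. Markers of other tissues were not absent from the IP: 9 of 9 muscle genes were lower there but still summed to 1524 to 1965 CPM against 6512 to 6628 CPM, 6 of 7 enterocyte genes were lower and 1 higher (519 to 660 against 2109 to 2200 CPM), and 2 of 6 enteroendocrine genes were higher and 2 lower (154 to 172 against 110 to 117 CPM). Of 4 tracheal genes 1 was lower (17.2 to 25.0 against 43.0 to 44.4 CPM), all 4 fat body genes were lower (827 to 1028 against 5300 to 5333 CPM), 2 of 3 tested neuronal genes were lower (82.3 to 107 against 123 to 155 CPM), and all 5 germline genes were lower (154 to 155 against 747 to 771 CPM). No marker on these lists had 0 counts in all libraries. The part of such RNA in the values below was not tested.

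Of the 10 Wnt genes, 7 were higher in the PABP IP, 1 was lower and 2 were not called (quasi-likelihood test in edgeR, p adjusted by Benjamini-Hochberg over all 9989 tested genes, threshold 0.05). Over all tested genes 37.1% were higher and 38.8% lower, and 75.9% were called in either direction. The median log2 fold change of IP over input was 0.88 for the 10 genes and -0.10 for all tested genes. The genes that rose most were fz2, pan and Axn, a receptor, the pathway's transcription factor and the scaffold of the destruction complex. Those with negative fold changes were wg, fz3 and Notum. In CPM all 10 genes had non-overlapping groups, 7 with both IP libraries above both input libraries and 3 below, against 42.3% and 46.3% of the genes tested. A higher value in the IP can come from expression in progenitors, from binding by PABP or from background on the beads, and within either group fewer cells of a type and less RNA per cell cannot be told apart. Nothing in the labels shows that replicates were separate collections of flies, so that p-values cover no more than the spread among these libraries, possibly a technical one.

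These counts depended on how the libraries were scaled. With upper-quartile factors 5 of the 10 genes were higher and 3 lower, with the authors' size factors likewise 5 and 3, and with library size alone 4 and 4. The median of all tested genes moved from -0.10 to -0.71, -0.59 and -0.95 on the log2 scale under these settings, and the share of calls that were higher from 48.9% to 31.0%, 33.8% and 25.8%. fz2, pan, Axn and nkd were called higher in all 4 scalings. Each change below is relative to the zero point set by TMM.

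**Figure D1:**
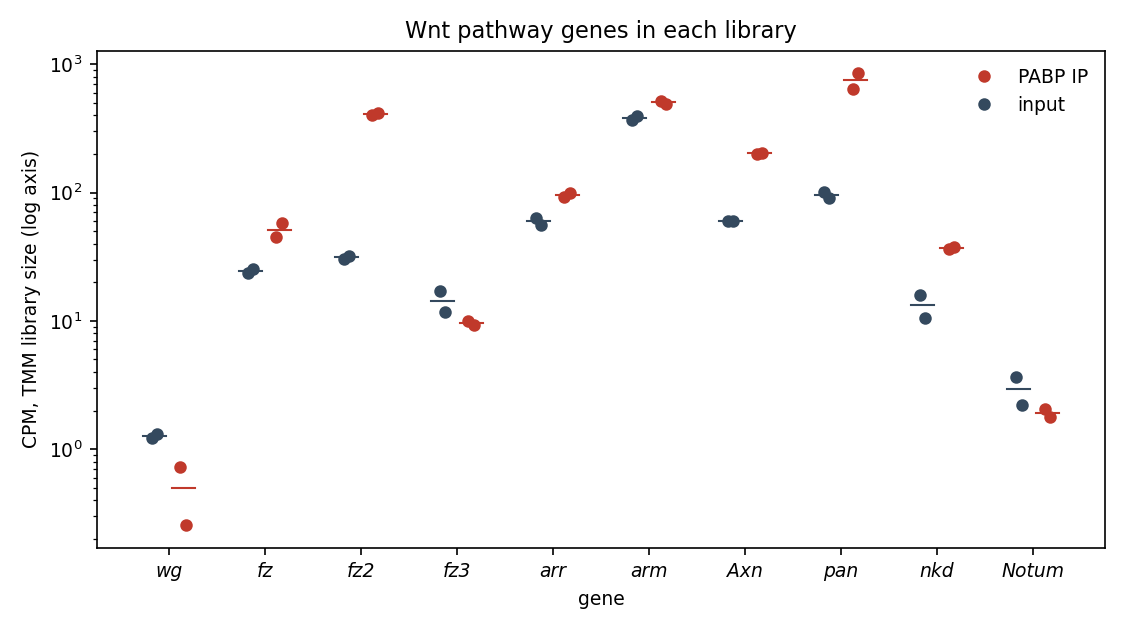
Level of each of the 10 genes in every library, in CPM scaled by TMM library size on a log axis; points are single libraries and bars are group means (n = 2 each). fz2 and pan stand farthest apart between the groups, while the points of wg lie at about 1 CPM or below.

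The ligand gene wg was barely detected. It had 5 and 2 counts in PABP IP 1 and 2 and 4 and 6 in input 1 and 2, which are 0.732 and 0.255 CPM against 1.22 and 1.32 CPM. Both IP values lay below both input values, but the difference did not pass the threshold (log2 fold change -1.38 ± 0.66 SE, adjusted p = 0.0660 in edgeR), and this SE is smaller than the counting error alone, 0.71. Scaled sums of the counts were 2.68 times higher in the input, with an exact 95% interval from 0.922 to 8.30 that covers counting error only. wg was called lower in edgeR with the authors' size factors (-1.86), upper-quartile factors (-1.98) and library size alone (-2.21), and in limma-voom (-1.50). wg was not called in DESeq2 (-1.29, adjusted p = 0.415) or in the authors' deposited table (-1.90, adjusted p = 0.0718). It did not pass the filter when any library was left out.

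The other tested Wnt ligand genes went different ways. Wnt6, a neighbour of wg in the same cluster of ligand genes, had 76.0 and 89.3 CPM in the IP and 5.49 and 7.51 CPM in the input, a 12.4-fold rise (log2 3.63 ± 0.18 SE, adjusted p = 8.80e-12). Wnt5, which signals through Ryk-type receptors in the fly nervous system and was picked here after its values were seen, had 67.5 and 69.8 CPM against 15.3 and 14.1 CPM (log2 2.23 ± 0.15 SE, adjusted p = 2.79e-10). Wnt2, which acts in the fly testis and trachea, was lower in the IP, at 1.03 and 1.66 CPM against 2.44 and 4.19 CPM (log2 -1.32 ± 0.45 SE, adjusted p = 0.0139). These values rest on few counts, 7 and 13 in the IP against 8 and 19 in the input. The call of Wnt2 was lost in DESeq2 (-1.21), at an adjusted p of 0.01 and against a log2 fold change of 1. Its log2 fold change weakened to -1.02 without PABP IP 1 and to -0.85 without input 2. Wnt4 was not called (-0.16).

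As a share of all counts on the 7 Wnt ligand genes, wg took 0.495% and 0.157% in PABP IP 1 and 2 and 4.71% and 4.55% in input 1 and 2. These shares do not depend on the scaling of the libraries. They rest on 2 to 6 counts of wg per library, while the counts of all 7 genes were 1011 and 1277 in the IP and 85 and 132 in the input, so a lower share of wg also follows where Wnt6 and Wnt5 rise. Exact 95% binomial intervals, which cover counting error only and not the spread between samples, were 0.161% to 1.15% and 0.0190% to 0.565% in the IP and 1.30% to 11.6% and 1.69% to 9.63% in the input. Wnt6 took 51.3% and 54.7% of the ligand counts in the IP against 21.2% and 25.8% in the input. Wnt5 took 45.6% and 42.8% against 58.8% and 48.5%. The 2 genes with the most ligand counts in the IP were thus Wnt6 and Wnt5, in both libraries, although counts of genes of different length do not rank their levels.

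The receptor gene fz2 showed the highest fold change of the 10 genes. fz2 encodes a Frizzled receptor that binds Wg with high affinity. It had 2743 and 3272 counts in the IP and 99 and 146 in the input, or 402 and 418 CPM against 30.2 and 32.2 CPM. The libraries of a group lay close together and the groups far apart, and the rise was 13.1-fold (log2 3.71 ± 0.12 SE, adjusted p = 8.49e-14). This fold change stood at the 97.9th percentile of all tested genes. It stayed between 2.85 and 3.81 under the 15 alternatives and was called in each. For fz2 the authors' deposited table lists 3.21 on the log2 scale (adjusted p = 1.62e-37).

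The founding receptor gene fz, which acts with fz2 in Wg reception and on its own in planar cell polarity, differed less between the groups. It had 308 and 451 counts in the IP and 78 and 115 in the input, or 45.1 and 57.6 CPM against 23.8 and 25.4 CPM. Both IP libraries were higher, by 2.09-fold (log2 1.06 ± 0.16 SE, adjusted p = 9.12e-06). The call was lost with library size alone (0.20) and against a log2 fold change of 1. In the authors' deposited table fz stands at 0.56 (adjusted p = 0.112).

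The third receptor gene, fz3, whose transcription is raised by Wg in the fly wing disc, was lower in the IP. It had 68 and 73 counts in the IP and 56 and 53 in the input, or 9.96 and 9.32 CPM against 17.1 and 11.7 CPM. The input libraries differed more from each other than the IP libraries did, and the groups did not overlap. The log2 fold change was -0.55 ± 0.24 SE (adjusted p = 0.0454). This was the only one of the 10 genes called lower, and the call did not hold without PABP IP 2 (-0.51, adjusted p = 0.0781), without input 1 (-0.29, adjusted p = 0.405), with RLE factors (-0.48), with no filter beyond any count (-0.48), in DESeq2 (-0.46) or at an adjusted p of 0.01. With library size alone it was -1.40, and the authors' deposited table gives -1.07 (adjusted p = 0.0103).

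Within a single library the ratio of fz2 to fz counts is free of the scaling. It was 8.91 and 7.25 in PABP IP 1 and 2 and 1.27 in both input 1 and input 2. The mean ratio was 6.37 times higher in the IP, with no overlap between the groups. fz and fz2 have counted lengths of 94297 and 94399 bases, so they differ little in length. Their log2 fold changes differed by 2.65 ± 0.20 (SE combined from both). The ratio of fz3 to fz2 was 0.0248 and 0.0223 in the IP and 0.566 and 0.363 in the input. With 2 libraries against 2, the exact two-sided permutation test cannot go below p = 0.333, which is the value it gave for each of the ratios computed here.

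Set against all 4 frizzled genes, fz2 took 66.3% and 65.7% of the counts in the IP (exact 95% intervals 64.9% to 67.8% and 64.3% to 67.0%) and 21.1% and 22.2% in the input (17.5% to 25.1% and 19.0% to 25.5%). These intervals too cover counting error only. The share of fz4, the remaining frizzled gene, was 24.6% and 23.8% in the IP and 50.3% and 52.4% in the input, although its CPM rose 2.02-fold (log2 1.02 ± 0.10 SE, adjusted p = 1.07e-07; 0.16 and not called with library size alone). fz4 overlaps CG8300 in part, so its counts are uncertain, and they enter every share given here. The share of fz was 7.45% and 9.05% against 16.6% and 17.5%, and that of fz3 was 1.64% and 1.46% against 11.9% and 8.04%. Of the 4 genes, fz2 alone had a larger share in both IP libraries than in both input libraries. Shares within a library are bound to each other, so lower shares of the other genes also follow where fz2 rises.

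**Figure D2:**
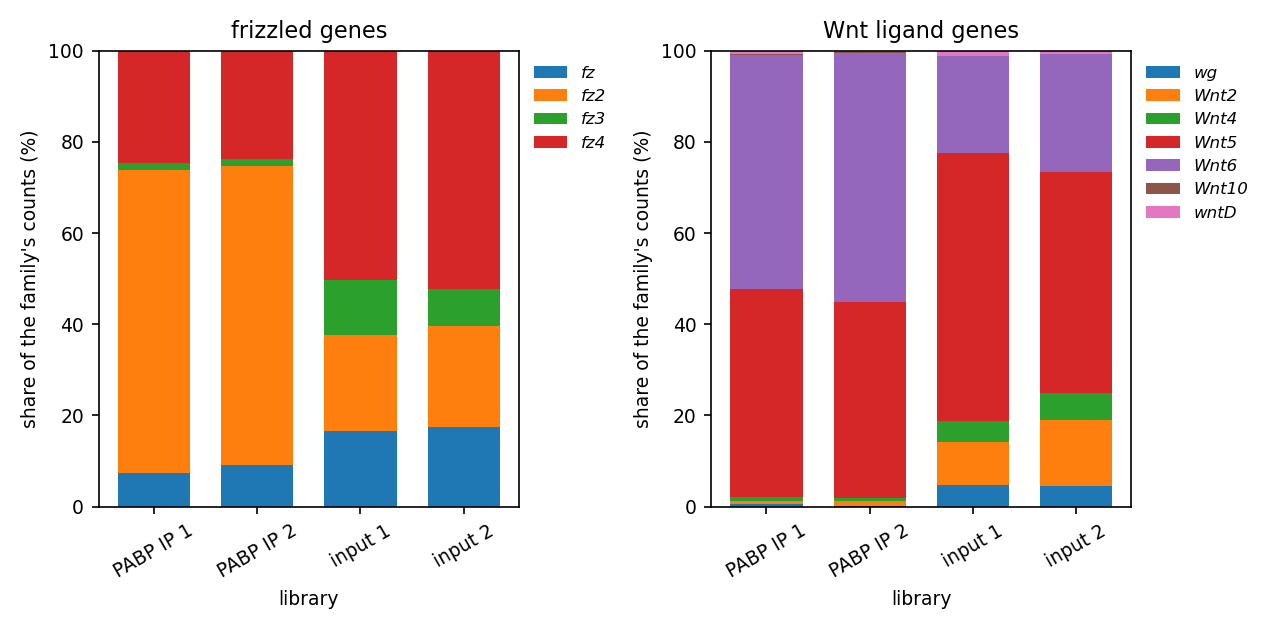
Share of the counts of each gene within the 4 frizzled genes (left) and the 7 Wnt ligand genes (right), in percent of the family's counts in that library, 1 bar per library. fz2 takes about 66% of the frizzled counts in the IP and about 22% in the input, and Wnt6 takes a larger part of the ligand counts in the IP.

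The co-receptor gene arr, the fly LRP5 and LRP6 counterpart, had 632 and 783 counts in the IP and 209 and 251 in the input. Its levels were 92.6 and 100.0 CPM against 63.8 and 55.4 CPM, with both IP libraries higher. The rise was 1.62-fold (log2 0.70 ± 0.12 SE, adjusted p = 3.64e-05). It was not called with upper-quartile factors (0.09) or the authors' size factors (0.20), and its sign turned with library size alone (-0.15). It is 0.20 in the authors' deposited table (adjusted p = 0.294). With RLE factors (0.77) and in DESeq2 (0.80) arr was called higher.

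The gene arm encodes a product that is both the Wnt effector beta-catenin and a part of adherens junctions. Of the 10 genes it had the highest CPM per kb of counted length, introns included, in both groups. It had 3560 and 3848 counts in the IP and 1212 and 1789 in the input, or 521 and 491 CPM against 370 and 395 CPM. The 1.32-fold rise was small beside those of fz2 and pan (log2 0.40 ± 0.11 SE, adjusted p = 0.00297). It turned negative with upper-quartile factors (-0.21, not called), the authors' size factors (-0.09, not called) and library size alone (-0.45, adjusted p = 0.000761). The authors' deposited table gives -0.09 (adjusted p = 0.574).

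Axn, the scaffold of the destruction complex and thus a negative regulator, had 1364 and 1597 counts in the IP and 196 and 273 in the input. The levels were 200 and 204 CPM against 59.8 and 60.3 CPM, nearly equal within each group. Axn rose 3.36-fold (log2 1.75 ± 0.11 SE, adjusted p = 9.63e-11), and its log2 fold change lay between 0.89 and 1.85 under the alternatives, called in all 15. In each library the ratio of Axn to arm counts, which scaling leaves unchanged, was 0.383 and 0.415 in the IP and 0.162 and 0.153 in the input.

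The transcription factor gene pan, the fly TCF, had the second highest fold change. Its counts were 4401 and 6649 in the IP and 331 and 411 in the input, giving 644 and 849 CPM against 101 and 90.7 CPM. PABP IP 2 was higher than PABP IP 1, and both lay far above the input. The rise was 7.81-fold (log2 2.97 ± 0.14 SE, adjusted p = 5.83e-12) and was called in all 15 alternatives, between 2.11 and 3.17. In the input pan had fewer counts than arm, with ratios of 0.273 and 0.230, and in the IP it had more, with ratios of 1.24 and 1.73. These ratios do not rank the levels, since pan is the longer gene. Per kb of counted length, arm stood above pan in the IP too (54.8 against 16.6 CPM). That length includes introns, which sets genes with long introns low, so this does not rank the transcripts of arm and pan either. The log2 fold changes of pan and arm differed by 2.56 ± 0.18 (SE).

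Among the feedback genes, nkd was called and Notum was not. nkd encodes an intracellular antagonist that acts on Dishevelled and is induced by Wg in the fly embryo. It had 246 and 296 counts in the IP and 52 and 48 in the input, or 36.0 and 37.8 CPM against 15.9 and 10.6 CPM. The IP libraries were close to each other and above both input libraries, with a 2.86-fold rise (log2 1.51 ± 0.19 SE, adjusted p = 1.21e-06). It was called in all 15 alternatives, between 0.66 and 1.79, and in the authors' deposited table (0.997, adjusted p = 0.00471).

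Notum encodes a secreted enzyme that inactivates Wnt proteins by removing their lipid. It had 14 counts in each IP library and 12 and 10 in the input, or 2.05 and 1.79 CPM against 3.66 and 2.21 CPM. The groups did not overlap, but the difference did not pass the threshold (log2 -0.56 ± 0.43 SE, adjusted p = 0.241). Scaled sums were 1.48 times higher in the input, with an exact 95% interval from 0.804 to 2.67 for counting error only. The call depended on the scaling: in edgeR Notum was called lower with upper-quartile factors (-1.17), the authors' size factors (-1.06) and library size alone (-1.41). Notum was not called in DESeq2 (-0.49, adjusted p = 0.612) or in the authors' deposited table (-1.08, adjusted p = 0.100). The log2 fold changes of nkd and Notum differed by 2.08 ± 0.47 (SE).

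**Figure D3:**
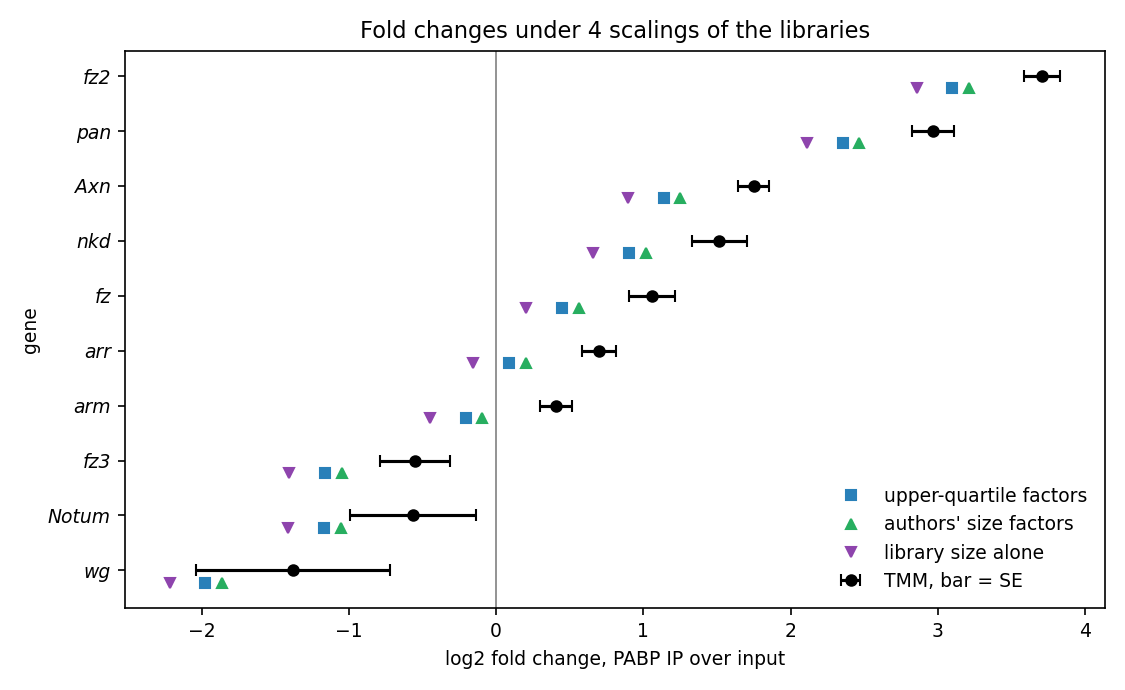
Log2 fold change of IP over input for each of the 10 genes with TMM scaling (black, bar = SE, 2 libraries per group) and with 3 other scalings of the libraries (coloured). fz2, pan, Axn and nkd stay above 0 in all 4 scalings, wg, Notum and fz3 stay below 0, and arm and arr change sign.

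Levels of different genes were compared as CPM per kb of counted length. This length is the whole gene, introns included, for all 10 genes, so genes with long introns are set low. In the IP the order was arm (54.8 ± 2.29 CPM per kb, SD, n = 2), pan (16.6 ± 3.22), Axn (16.2 ± 0.237), fz2 (4.34 ± 0.121), arr (3.25 ± 0.178), nkd (0.885 ± 0.0301), fz3 (0.675 ± 0.0315), fz (0.545 ± 0.0936), Notum (0.207 ± 0.0200) and wg (0.0542 ± 0.0370). pan and Axn overlapped, and the other neighbours did not. The order in the input was arm (41.4 ± 1.91), Axn (4.81 ± 0.0252), pan (2.13 ± 0.162), arr (2.01 ± 0.200), fz3 (1.01 ± 0.267), fz2 (0.331 ± 0.0151), nkd (0.317 ± 0.0894), Notum (0.316 ± 0.111), fz (0.261 ± 0.0118) and wg (0.140 ± 0.00805). There pan overlapped with arr, and fz2, nkd, Notum and fz followed each other with overlap. fz2 thus stood above arr and fz3 in the IP and below both in the input.

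All 10 genes are long, and long genes had higher fold changes across the whole table. Counted lengths ran from 9107 bases for wg to 94399 for fz2. The median log2 fold change of tested genes was -0.47 for lengths up to 2000 bases (3798 genes), 0.41 between 10000 and 25000 bases (1045 genes) and 0.99 above 50000 bases (307 genes). Among the 1936 tested genes at least as long as wg, the median was 0.58, and 52.2% were higher and 26% lower. The counts of 7 higher and 1 lower among the 10 genes stand beside those shares, and the part of gene length in them was not tested. fz and fz2, which differ little in length, had log2 fold changes of 1.06 and 3.71. wg, arm and Notum, all between 9107 and 9273 bases, had -1.38, 0.40 and -0.56. Such differences between genes of like length do not measure the part of length in the counts of called genes.

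**Figure D4:**
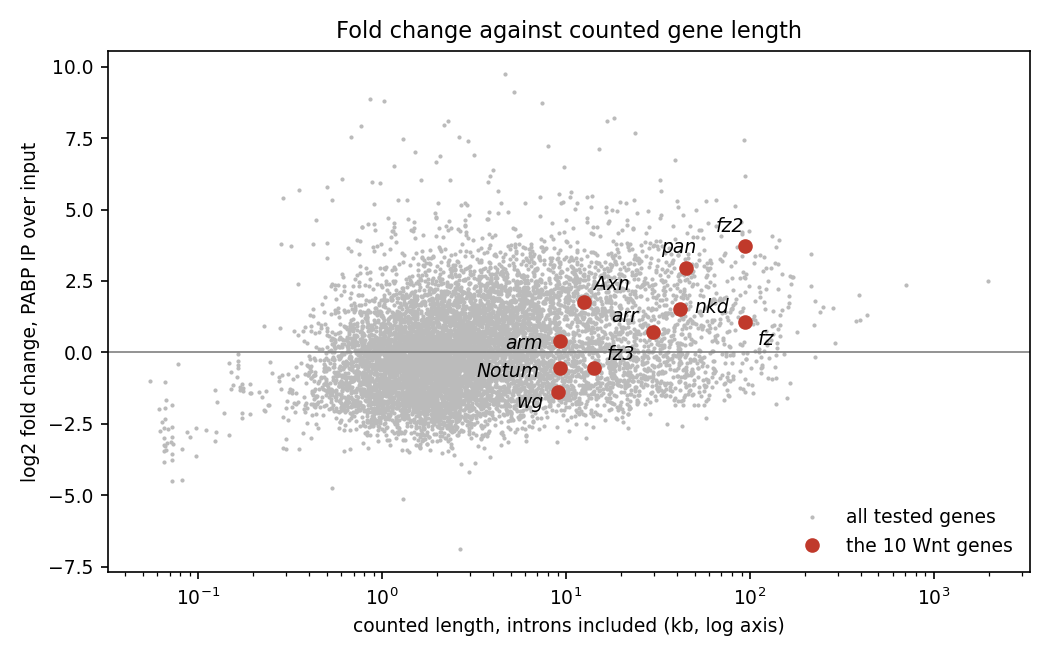
Log2 fold change of IP over input against counted gene length in kb (log axis, introns included) for all tested genes (grey) and the 10 Wnt genes (red). Higher fold changes go with greater length over all genes. Among the 10 genes fz2 and fz share nearly the same length but not the same fold change, and the part of length was not tested.

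The rest of the pathway was described from a list of 54 further genes. Of these 49 were tested, 34 were higher in the IP, 9 lower and 6 not called, with a median log2 fold change of 1.48. Over all tested genes 37.1% were higher and 38.8% lower, with a median of -0.10, and among those at least as long as wg 52.2% and 26%. With upper-quartile factors 31 of the list were higher and 10 lower (2574 and 5719 of all genes), with the authors' size factors 32 and 10 (2750 and 5384), and with library size alone 27 and 12 (2209 and 6347). The counts by role below stand beside the same 37.1% higher and 38.8% lower of all tested genes. Roles were assigned after the values were seen, so differences between roles are descriptive only. Of 11 genes assigned to the cytoplasmic relay 10 were higher and 1 lower (median 1.77). Axud1 (1.48, higher) is among them, and its place in this role is uncertain. Of 10 tested nuclear partners 8 were higher and 2 lower (median 2.18). Of 4 tested ligand genes 2 were higher and 1 lower, and of 4 tested genes reported as targets 1 was higher and 1 lower. Of 7 genes assigned to the secretion and transport of ligands 6 were higher and 1 not called. Among those higher was shf (1.62), whose place in this role is uncertain. Of 7 further receptor genes 5 were higher and 1 lower. Of 6 planar polarity genes 2 were higher and 3 lower.

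In the relay, dsh, whose product passes the signal from Frizzled to the destruction complex, rose 2.97-fold from 53.4 and 65.8 CPM to 188 and 169 CPM (log2 1.57 ± 0.12 SE, adjusted p = 2.05e-09). sgg, the GSK3 kinase gene of the destruction complex, rose 7.51-fold from 136 and 117 to 902 and 998 CPM (log2 2.91 ± 0.13 SE). The Axin partners Apc and Apc2 went apart. Apc rose 5.02-fold, from 117 and 119 to 605 and 580 CPM (log2 2.33 ± 0.11 SE, adjusted p = 5.48e-12). Apc2 was lower in the IP, at 42.2 and 41.8 CPM against 60.4 and 70.2 CPM (log2 -0.65 ± 0.12 SE, adjusted p = 0.000162). The ratio of Apc to Apc2 counts was 14.3 and 13.9 in PABP IP 1 and 2 and 1.94 and 1.69 in input 1 and 2, and these values do not depend on the scaling. Apc2 overlaps CG5510 in part, so its counts are uncertain.

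In the nucleus, the Armadillo partner genes lgs and pygo rose by close amounts, 4.59-fold and 4.48-fold (log2 2.20 ± 0.13 and 2.16 ± 0.11 SE). lgs had 548 and 610 CPM in the IP against 140 and 114 CPM, and pygo 355 and 361 against 73.9 and 85.2 CPM. The genes of the regulator Split ends, spen, and of the co-repressor CtBP rose by 3.27 ± 0.16 and 3.16 ± 0.14 (log2, SE). The chromatin helicase gene rept was lower, at 37.3 and 39.2 CPM against 63.2 and 70.2 CPM (log2 -0.80 ± 0.12 SE, adjusted p = 1.44e-05).

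On the ligand side, wls, which carries Wnt proteins to the cell surface, rose 1.88-fold from 42.4 and 41.3 to 79.4 and 77.8 CPM (log2 0.91 ± 0.12 SE), not called with library size alone (0.06). por, which attaches the lipid to Wnt proteins, had 17.6 and 15.8 CPM against 13.4 and 15.5 CPM, and the difference did not pass the threshold (log2 0.20 ± 0.20 SE, adjusted p = 0.378), with a turned sign under upper-quartile factors (-0.41), the authors' size factors (-0.30) and library size alone (-0.66, adjusted p = 0.00703). Both genes overlap a neighbouring gene in part. The receptor kinase gene Ror had the highest fold change of the list, with 176 and 213 counts in the IP against 6 and 5 in the input (log2 4.21 ± 0.30 SE, adjusted p = 1.11e-09), and overlaps CG5676 in part. The receptor-like gene otk2 was lower, at 1.32 and 1.53 CPM against 4.88 and 4.19 CPM (log2 -1.64 ± 0.40 SE, adjusted p = 0.00131), a call lost in DESeq2 (-1.56).

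Planar polarity, a branch that shares Fz and Dsh, held genes at both ends. pk rose from 10.1 and 5.96 to 73.4 and 90.2 CPM (log2 3.40 ± 0.20 SE), with 7 genes nested inside it. dgo had the lowest fold change of the list, at 3.08 and 3.06 CPM in the IP against 13.1 and 13.9 CPM (log2 -2.13 ± 0.27 SE, adjusted p = 1.87e-06). The wing gene vg, a target of Wg in the fly wing disc, was also lower, with 1.03 and 1.15 CPM against 4.58 and 3.53 CPM (log2 -1.85 ± 0.43 SE, adjusted p = 0.000909). The values of vg rest on few counts, 7 and 9 in the IP against 15 and 16 in the input. Its counted length did not equal its whole gene span in RefSeq.

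**Figure D5:**
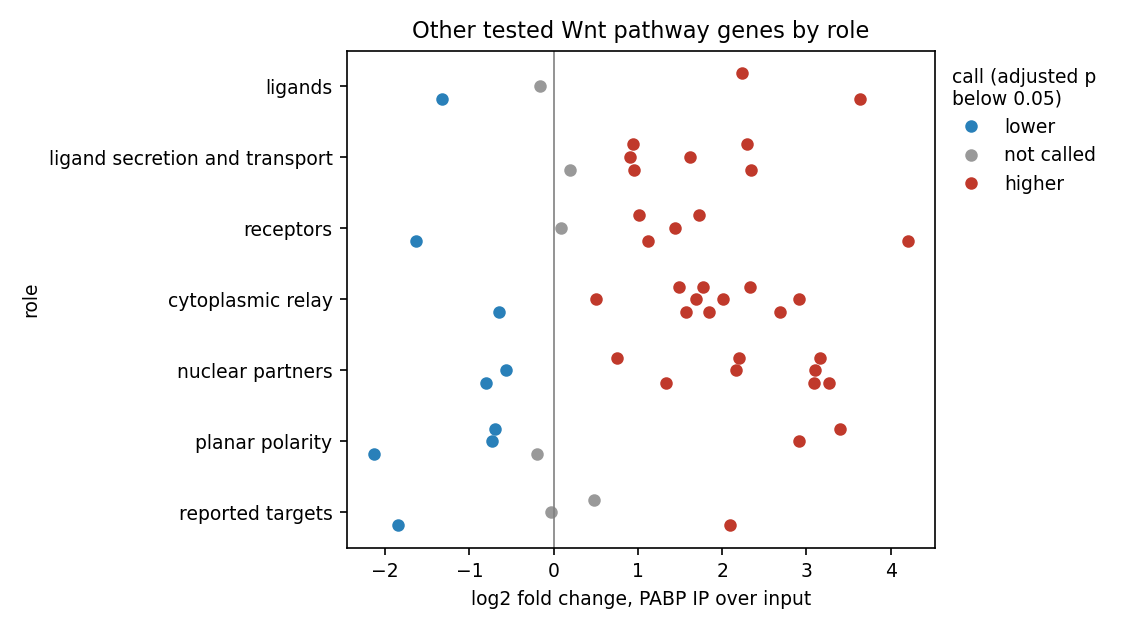
Log2 fold change of IP over input for the 49 tested genes of the wider Wnt list, grouped by role; each point is 1 gene, coloured by its call at an adjusted p below 0.05, and the vertical spread within a role only separates points. Relay and nuclear genes lie mostly above 0, and planar polarity genes lie on both sides. Roles were assigned after the values were seen.

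The genes nearest to fz2 in level, by Euclidean distance over the log2 CPM of the 4 libraries, were Scamp (0.24), pnt (0.28) and Snoo (0.29), each with a log2 fold change between 3.53 and 3.62. The genes nearest to wg were CG33061 (0.26), CG13203 (0.27) and CG43063 (0.34), all at 1.43 CPM or below in both groups, so that closeness there rests on a few counts.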

How the data were processed

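Each library is 1 GEO sample, assigned to its group by its title. The authors deposited raw read counts per gene, all whole numbers. The submitters' processing notes name DESeq2, featureCounts, Subread 2.0.0, SAMtools 1.10, STAR 2.7.3a and cutadapt 2.9. The sources used here give no settings, strand use or build, so no coordinates are printed. The counted length stands beside each gene per the file headers, and for all 10 genes it equalled the whole gene span in RefSeq (assembly Release 6 plus ISO1 MT), so introns were counted. By RefSeq wg, fz3 and pan overlap no other gene, arm and Axn overlap a neighbour in part, and the rest hold only nested genes; overlapping genes are uncertain. A row with no gene name, at most 0.000418% of a library, was left out.

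The authors' deposited DESeq2 table gives, per the file headers, log2 fold changes with p-values and adjusted p-values, a base mean signal, a Wald score and a normalized signal per library, which equals the count over 1 size factor. The counts entered edgeR 4.0.16 (R 4.3.3) with the two-sided glmQLFTest after glmQLFit, adjusted by Benjamini-Hochberg at a threshold of 0.05. filterByExpr used a minimum count of 10. TMM gave factors of 0.760 and 0.728 (PABP IP 1 and 2) and of 1.33 and 1.36 (input 1 and 2). SE is the size of the log2 fold change over the square root of F. CPM scales counts to a common TMM library size, and 1 count is worth 0.128 to 0.305 CPM. Alternatives used DESeq2 1.42.0 and limma 3.58.1 as well as other scalings, filters, thresholds, a replicate block and each library left out. The test was checked on simulated counts in which few genes changed. That check says nothing about the scaling here, where 75.9% of tested genes were called. No sequences were used here.

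The 10 genes and the wider list were chosen with earlier results of these data known. From the list, the text names up to 5 called genes with the highest and up to 5 with the lowest fold change, and dsh, sgg, Apc, Apc2, lgs, pygo, wls and por. It also names the 3 genes nearest in log2 CPM (prior count 2) to the members with the highest and lowest fold change. Wnt4, Wnt5 and fz4 were named after their values were seen, and roles were assigned then too. Symbols were matched exactly, except wntD, whose capitals differed.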

Additional observations from a re-analysis of the deposited data

How the results depend on the processing

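Each of the 10 genes was tried under up to 15 alternatives, 144 results in all, of which 120 kept both direction and call. The sign turned in 4: arr with library size alone (-0.15), and arm with upper-quartile factors (-0.21), the authors' size factors (-0.0942) and library size alone (-0.45). The count of 7 higher genes fell to 4 with library size alone and to 4 against a log2 fold change of 1. The count of 1 lower gene, fz3, became 3 with upper-quartile factors, 3 with the authors' size factors, 4 with library size alone and 2 in limma-voom. It became 0 in edgeR with RLE factors, with no filter beyond any count, against a log2 fold change of 1 and at an adjusted p of 0.01, and 0 in DESeq2; at an unadjusted p under 0.05 these gave 0, 1, 0, 1 and 0 lower genes. Leaving out each library in turn gave 0 to 1 lower genes, 0 without PABP IP 2 or input 1 (also 0 at an unadjusted p under 0.05 in edgeR, against 2 in limma-voom with all libraries). For the wider list the 9 lower genes became 5 in DESeq2 and 3 against a log2 fold change of 1. Over all genes, 3708 higher and 3873 lower became 2209 and 6347 with library size alone and 2145 and 1584 against a log2 fold change of 1, and DESeq2 called 2521 lower.

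With the replicate number as a block (replicate block), 7 Wnt genes were called higher and 1 lower, and 34 and 9 in the wider list. Deviations of same-numbered libraries from their group means correlated at r = -0.09 over 9989 genes. With 2 libraries per group the deviations mirror each other, so r cannot show whether same-numbered libraries share an extract. The main test left them unpaired. Depth limits wg and Notum, with 2 to 14 counts per library; a minimum count of 30 left both untested.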

Other observations

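Some Wnt genes of the wider list could not be tested. Myc and ebd2 had 0 counts in all 4 libraries. Both lie wholly inside another gene, lncRNA:CR44999 and CG32436, so these counts say nothing about their RNA. The ligand gene Wnt10 had 2 and 3 counts in PABP IP 1 and 2 and 0 in both input libraries, and wntD had 7 and 3 counts against 1 and 1. The planar polarity gene in had 5 and 0 counts in the IP against 3 and 12 in the input, so its IP libraries did not agree on whether it was present.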
